A study of Homo sapiens with 24 samples.

Results

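Small nucleolar RNAs and small Cajal body RNAs were followed in 2 human kidney cell lines in which the RPRD proteins were silenced or RPRD1B was introduced. The members are the gene names beginning with SNORA, SNORD or SCARNA whose raw counts sum to 24 or more over the 24 samples. This rule kept 61 of 486 such names, among 58138 gene names in all. Of the names, 34 of 160 SNORA (21.2%), 12 of 301 SNORD (4.0%) and 15 of 25 SCARNA (60.0%) were kept. A further 334 names had no count in any sample and 91 had 1 to 23 counts. Just inside the limit lay SNORD38C with 29 counts, SNORA7 with 28 and SNORA71B with 25, and just outside it SCARNA21B and SNORA28 with 23 each and SNORA73 with 22. The members were thus chosen by their summed counts, and the group of RNAs was selected on the levels of SNORA79B and SCARNA8, which were higher in samples treated with siRNA against RPRD1B. Their values in those samples are given as a description.

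The series asks how RPRD1A, RPRD1B and RPRD2, proteins that bind the C-terminal tail of RNA polymerase II, bear on steady-state RNA levels. HEK293T cells, an established embryonic kidney line, were treated for 48 h with control siRNA or with siRNAs in 7 combinations, labelled RPRD1A_KD, RPRD2_KD and RPRD1A_RPRD2_KD, RPRD1B_KD, RPRD1B_RPRD2_KD and RPRD1A_RPRD1B_RPRD2_KD, and RPRD1A_RPRD1A_KD. Flp-In T-REx 293 cells, a related line built for genes that tetracycline turns on, were studied as the parent line (FLP), as a line labelled RPRD1B_FL, and as the same 2 lines after 48 h of tetracycline (FLP_TET, RPRD1B_FL_TET). Each of the 12 groups had 2 samples, read with the QuantSeq REV kit, which primes on poly(A) and sequences transcript 3′ ends. All 16 HEK293T samples share transfection with an siRNA, which the labels do not give for the 8 Flp-In samples. The labels do not explain FL and do not say whether the inserted line is 1 clone. Nothing in them says that the 2 samples of a group came from separate cultures, so p-values measure only the spread between these samples.

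Box H/ACA small nucleolar RNAs (the SNORA names) guide the change of uridine to pseudouridine in ribosomal RNA, and box C/D RNAs (the SNORD names) guide methylation of the ribose 2′ oxygen. Small Cajal body RNAs (SCARNA) carry out the same reactions on the small nuclear RNAs of the spliceosome, in the nuclear structures they are named after. In human cells most are cut out of introns of a host gene and trimmed, and the mature forms end without a poly(A) tail. Reads from a library primed on poly(A) therefore need not stand for the mature RNA, and the files do not tell precursor, tailed and mature forms apart.

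The members on which the results turn are printed here from the GENCODE release 29 transcripts (GRCh38), 5′ to 3′ in DNA letters. Capitals mark ACA placed 3 bases before the 3′ end, the H/ACA end motif, or, in SNORD104, TGATGA within the first 20 bases and CTGA within the last 20, which correspond to boxes C and D.
SNORA79B: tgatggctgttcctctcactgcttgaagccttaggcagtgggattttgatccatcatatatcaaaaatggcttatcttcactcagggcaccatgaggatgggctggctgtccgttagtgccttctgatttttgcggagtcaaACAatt
SNORA79: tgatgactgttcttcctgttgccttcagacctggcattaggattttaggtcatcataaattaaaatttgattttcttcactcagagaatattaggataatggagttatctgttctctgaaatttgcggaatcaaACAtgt
SCARNA8: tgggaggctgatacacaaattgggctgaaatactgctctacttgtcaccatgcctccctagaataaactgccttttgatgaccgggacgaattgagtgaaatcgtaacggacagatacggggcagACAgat
SCARNA13: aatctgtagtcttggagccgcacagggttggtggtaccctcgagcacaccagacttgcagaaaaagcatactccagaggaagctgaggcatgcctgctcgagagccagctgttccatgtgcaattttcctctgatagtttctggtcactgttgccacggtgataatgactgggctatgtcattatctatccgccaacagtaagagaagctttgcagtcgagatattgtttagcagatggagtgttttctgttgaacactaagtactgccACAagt
SCARNA20: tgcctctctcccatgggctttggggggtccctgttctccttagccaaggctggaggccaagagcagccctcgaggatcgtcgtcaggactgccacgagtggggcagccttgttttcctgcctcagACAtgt
SNORD104: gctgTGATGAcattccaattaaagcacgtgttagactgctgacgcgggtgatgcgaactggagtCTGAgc

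SNORA79B lies on the minus strand at chr14:20323179-20323326, within an intron of CCNB1IP1, and SNORA79 on the minus strand at chr14:81202695-81202834, within an intron of GTF2A1. SCARNA8 lies on the minus strand at chr9:19063656-19063786, in an intron of HAUS6, SCARNA13 on the minus strand at chr14:95533355-95533629, in an intron of SNHG10, and SCARNA20 on the minus strand at chr17:60231516-60231646, in an intron of USP32. SNORD104 is on the plus strand at chr17:64146083-64146152, in an intron of SNHG25. SNORA79 and SNORA79B, named as copies, were identical at 67.7% of aligned positions, against 50.9% for SNORA79B and SCARNA8. More alike were SNORD13 and SNORD13E (88.5%), SNORA11B and SNORA11F (88.4%), SCARNA18 and SCARNA18B (88.1%), and SNORA38 and SNORA38B (85.1%), between which the counting could have split or dropped reads, so their separate values are uncertain.

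Of the 61 members, 57 were found by name in GENCODE release 29. Of these, 55 lie inside a gene on the same strand, 50 of them in introns of every transcript of the host and 5 overlapping an exon of at least 1 transcript. SNORD8, which overlaps an exon of CHD8, is the most abundant of those 5. SNORA11F lies opposite an intron of NUDT13, and SNORD13, an independently transcribed RNA, overlaps an exon of TTI2 on the opposite strand. SNORA72 overlaps an exon of AP003352.1 on the opposite strand, and in all 7 members lie inside a gene on that strand. The strand setting of the counting is not given in the sources used here, so reads of these pairs cannot be told apart. The ACA end motif was present in 26 of 32 kept SNORA sequences (81.2%), 11 of 15 SCARNA (73.3%) and 1 of 10 SNORD (10.0%), and in 74.5% of the SNORA sequences that were not kept. TGATGA near the start occurred in 70.0% of kept and 69.4% of other SNORD sequences. Median lengths of kept and other sequences were 135 and 134 bases for SNORA, 95 and 82 for SNORD, and 135 and 265 for SCARNA. A run of 6 or more A, to which a poly(T) primer could pair, occurred in 3.5% of kept and 4.4% of other sequences. At least 7 A within 10 bases occurred in 60.0% of the 15 kept and 33.3% of the 9 other SCARNA, in 25.0% of kept and 23.6% of other SNORA, and in 10.0% of kept and 26.4% of other SNORD.

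The members held 19738 counts over the 24 samples, of which SNORA names took 49.7%, SCARNA names 39.4% and SNORD names 10.9%. SCARNA22, SNORA12, SNORA11F and SCARNA13 alone held 44.9% of the counts. SCARNA22, a Cajal body RNA encoded within NSD2 and known for its high level in a form of multiple myeloma, had the highest total, 2888. At the other end SNORA71B had 25. After the filter on low counts, 27 members could be tested in HEK293T cells (12 SNORA, 4 SNORD and 11 SCARNA) and 13 in Flp-In cells (6, 5 and 2), with 33 tested in neither line. A member that passed the filter only through a group in which it was high had to differ, so counts over the tested members are descriptions.

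Libraries of HEK293T cells held 1817246 to 3135625 counts in genes and those of Flp-In cells 2342969 to 3531106. Levels are given as CPM, the count scaled to the size of its library, and a floor of 3 counts stands at 0.96 to 1.65 CPM in HEK293T and 0.85 to 1.28 CPM in Flp-In libraries. The silenced genes were lower where the labels name them. RPRD1A stood at 155 and 165 CPM in control samples and at 14.6 to 27.4 in the groups naming it, RPRD1B at 28.4 and 28.1 against 3.97 to 14.7, and RPRD2 at 98.1 and 102 against 30.9 to 69.9. RPRD1A was also below the control samples where it is not named, at 85.9 and 102 CPM in RPRD1B_KD, 74.6 and 99.2 in RPRD2_KD and 69.3 and 84.9 in RPRD1B_RPRD2_KD. In the group labelled RPRD1A_RPRD1A_KD, RPRD1B was at 14.2 and 8.07 CPM although that label names RPRD1A only. The deposited name of its tables names RPRD1B as well, and the group is kept under its label and shown apart. RPRD1B stood at 83.4 and 64.3 CPM in RPRD1B_FL_TET and at 29.3 and 29.1 in FLP_TET. RPRD1A stood at 25.3 and 24.3 CPM in RPRD1B_FL_TET and at 55.2 and 51.8 in FLP_TET. The second RPRD1A_RPRD2_KD library stood apart on the first principal component of the HEK293T samples, at -59.6 where the others ranged from -5.28 to 16.3.

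SNORA79B was measured at 34.4 and 41.4 CPM in RPRD1B_KD, 25.4 and 42.7 in RPRD1B_RPRD2_KD, and 21.5 and 39.8 in RPRD1A_RPRD1B_RPRD2_KD. Control samples held 13 and 34.4 CPM, RPRD1A_KD 17.7 and 23.3, RPRD2_KD 9.49 and 13.3, and RPRD1A_RPRD2_KD 21.2 and 24.3. The group labelled RPRD1A_RPRD1A_KD, at 37.8 and 42.7 CPM, lay with the groups that name RPRD1B. Over the 6 libraries with RPRD1B in the label the median was 37.1 CPM (range 21.5 to 42.7), and over the 8 without it, leaving out RPRD1A_RPRD1A_KD, it was 19.5 (range 9.49 to 34.4). The ranges overlap. The second control (34.4 CPM), RPRD1A_KD (23.3) and RPRD1A_RPRD2_KD (24.3) libraries lay above the lowest value with RPRD1B in the label, 21.5. In bulk samples such as these, fewer cells holding an RNA and less of it per cell cannot be told apart.

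SCARNA8, a box H/ACA RNA of the Cajal body, was measured at 13.8 and 19.5 CPM in RPRD1B_KD, 11.1 and 13.9 in RPRD1B_RPRD2_KD, and 12.6 and 24.8 in RPRD1A_RPRD1B_RPRD2_KD. It stood at 5.67 and 10.4 CPM in control samples, 7.67 and 6.52 in RPRD1A_KD, 3.88 and 5.62 in RPRD2_KD, 5.98 and 14 in RPRD1A_RPRD2_KD, and 13.1 and 18.8 in RPRD1A_RPRD1A_KD. The higher RPRD1A_RPRD2_KD value of SCARNA8 comes from the library that stood apart, and it is the only one of the 8 libraries without RPRD1B in the label that reached the range of the 6 with it. Medians were 13.9 CPM (11.1 to 24.8) with RPRD1B in the label and 6.25 (3.88 to 14) without. SNORA79 had a similar order, with a median of 23.7 CPM (15.4 to 37.3) against 12.4 (5.61 to 29). SCARNA20 had 16.2 (10.5 to 19.1) against 7.82 (4.75 to 11.8). Within a sample number, the ranges of SNORA79B did not overlap in either number, while SCARNA8 and SNORA79 overlapped among samples numbered 2 and SCARNA20 among those numbered 1. These values belong to those that chose the members and support nothing. On the same contrast of samples the hosts lay nearer to 0 than these members. CCNB1IP1, a meiotic ubiquitin ligase gene, differed by -0.09 and HAUS6, a spindle assembly gene, by -0.06 on the log2 scale. GTF2A1, which holds SNORA79, differed by 0.07, and USP32, which holds SCARNA20, by 0.27 (edgeR adjusted p = 0.82), in the same direction as its member.

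**Figure D1:**
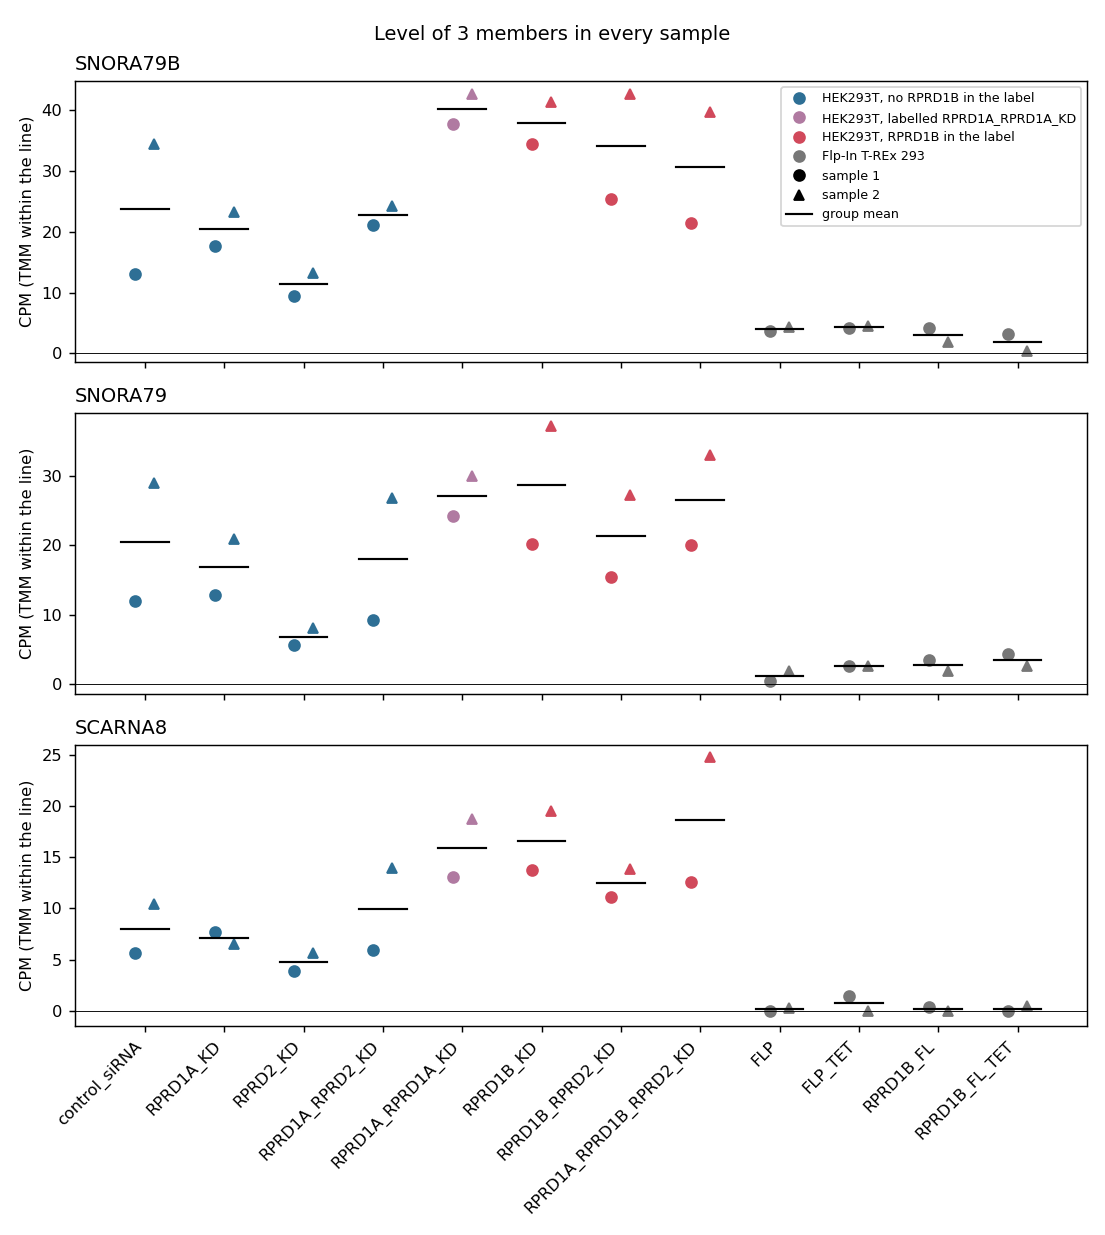
Level of SNORA79B, SNORA79 and SCARNA8 in every sample, in scaled counts (CPM) on the y axis and the 12 groups on the x axis; circles are samples numbered 1, triangles samples numbered 2, and bars the mean of 2. The second sample of each HEK293T group was the higher for SNORA79B and SNORA79, and all 3 members were at 4.43 CPM or less in every Flp-In sample.

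Across the members, the RPRD1B contrast was the one the choice drew on, and nothing is read from its counts. With the 3 groups labelled RPRD1B against the 4 without it, 0 of 27 members passed edgeR's quasi-likelihood test at an adjusted p of 0.05, against 0.0254% of the 11834 genes tested. DESeq2 also called 0, and 12 members had an unadjusted p under 0.05, all of them higher (6.1% of all genes in either direction). The log2 fold change was above 0 in 23 of 27 members and in 51.8% of all genes, with medians of 0.42 and 0.007. All 11 SCARNA were above 0, with a median of 0.76, against 9 of 12 SNORA (0.22) and 3 of 4 SNORD (0.07). SCARNA8 differed by 1.10 (SE 0.232), SCARNA20 by 0.97 (SE 0.205), SNORA79B by 0.84 (SE 0.201) and SNORA79 by 0.78 (SE 0.261). At the ends of the range were SCARNA4, at 1.32, and SNORA58, an H/ACA RNA encoded in MRPL3, at -0.47. Without the filter on low counts 6 members passed the test, in a fit for which the share of all genes called is not given. The fit held no term for sample number, and counts with one are given in the closing section.

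Each silenced group was set against the same 2 control samples, so these comparisons are not independent of each other. Values of RPRD1A_RPRD1A_KD and of the 3 groups with RPRD1B in the label were among those that chose the members, so their counts are descriptions only. For SNORA79B and SCARNA8 the choice also drew on the reference groups, which were control siRNA, RPRD1A_KD, RPRD2_KD and RPRD1A_RPRD2_KD. In RPRD1B_KD 0 of 27 members were called (0.00845% of all genes), 22 were above 0 (50.7%), and the median log2 fold change was 0.35. Groups did not overlap for 7 members, all higher (14.6% of all genes). The range ran from SNORA11B at -0.79 to SCARNA8 at 1.02, and 2 members had an unadjusted p under 0.05 (3.46% of all genes). RPRD1A_RPRD1A_KD had 0 called (0.0169%), 21 above 0 (50.4%), a median of 0.37, and 10 members higher and 1 lower without overlap (16.1% and 15.4%). Its extremes were SNORD104 at -0.78 and SCARNA23 at 0.97, and 3 members had an unadjusted p under 0.05 (3.99%). RPRD1B_RPRD2_KD had 0 called (0.0169%), 18 above 0 (49.3%) and a median of 0.15, from SNORA11B at -1.46 to SCARNA20 at 0.77, with 0 members at an unadjusted p under 0.05 (2.51%). Without overlap, 6 members were higher and 4 lower there (14.3% and 13.6%). In RPRD1A_RPRD1B_RPRD2_KD 0 were called (0.0169%), 19 were above 0 (49.6%) and the median was 0.08. There SNORA72, on 3 and 2 counts, was lowest at -1.22 and SCARNA8 highest at 1.2, and 2 members had an unadjusted p under 0.05 (3.99%). Without overlap, 5 were higher and 1 lower (15.9% and 15.7%). DESeq2 called 0 members in each of these comparisons.

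RPRD2_KD was the silenced group in which the members stood lowest. SCARNA13, an RNA of the Cajal body encoded in the host transcript SNHG10, lay below the control range, at 17.7 and 24.1 CPM against 44.2 and 43.5. SCARNA22 was at 28.5 and 40.2 CPM against 47.1 and 78.0, SNORA79 at 5.61 and 8.03 against 11.9 and 29, and SCARNA4 at 0.431 and 1.2 against 5.67 and 2.72. These 4 members did not overlap between the groups, although SCARNA4 rests there on 1 and 3 counts. SNORA79B, at 9.49 and 13.3 CPM, overlapped the control samples (13 and 34.4). In all, 10 members were lower and 3 higher without overlap, against 16.1% of all genes in each direction. The log2 fold change was below 0 in 21 of 27 members and above 0 in 6, where 49.9% of all genes were above 0, and the median was -0.51.

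The test called 0 of 27 members in RPRD2_KD, against 0.00845% of all genes, and DESeq2 also called 0. Neither fit held a term for sample number, and the closing section gives counts from edgeR fits with one. An unadjusted p under 0.05 was found for 6 members, all lower, where 3.84% of all genes had such a p in either direction. SCARNA13 had the smallest, with a log2 fold change of -1.07 (SE 0.278, edgeR unadjusted p = 0.00139, adjusted p = 1). The other 5 were SCARNA4 at -2.23, SNORA11B at -1.81, SNORA79 at -1.60, SCARNA11 at -1.52 and SNORA79B at -1.09, each with an edgeR adjusted p of 1. SNORA79B was singled out on a contrast with RPRD2_KD among its reference groups, so its value here is a description. By class, 10 of 11 SCARNA were below 0 with a median of -0.73, as were all 4 SNORD (-0.36) and 7 of 12 SNORA (-0.27). SNORA80A, encoded in URB1, was highest at 1.58. Over all 4 groups labelled RPRD2 against the other 4, the median was -0.15, 6 of 27 members were above 0 (47.9% of all genes) and 0 were called (0.0169%). In that comparison SCARNA13 (-0.40), SCARNA4 (-0.83) and SNORA11B (-0.85) had an unadjusted p under 0.05 (3.35% of all genes), and the highest was SNORA59B at 0.51.

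In RPRD1A_KD the lowest member was SNORD104. This box C/D guide, encoded in SNHG25, was at 6.23 and 6.52 CPM in RPRD1A_KD against 10.8 and 15 in control samples, without overlap. Its log2 fold change of -1.02 (SE 0.364) had an edgeR unadjusted p of 0.0125 and an adjusted p of 0.999. SNORD104 was also below both control values in RPRD2_KD (7.77 and 9.24 CPM), RPRD1A_RPRD1A_KD (7.88 and 7.3), RPRD1A_RPRD2_KD (7.61 and 7.65), RPRD1B_RPRD2_KD (10.4 and 5.96) and RPRD1A_RPRD1B_RPRD2_KD (8.4 and 6.85). Only RPRD1B_KD, at 12.7 and 7.88, overlapped the control samples, which all 7 comparisons share. In RPRD1A_KD 0 of 27 members were called (0.00845%), 7 were above 0 (50.1%), the median was -0.22, and SNORA58 was highest at 1.23. SNORD104 alone had an unadjusted p under 0.05 (2.64% of all genes). Without overlap, 7 members were lower and 2 higher (13.6% and 14.5% of all genes). RPRD1A_RPRD2_KD had 0 called (0.00845%), 12 above 0 (49.3%) and a median of -0.09, from SNORA72 at -1.73 to SNORA59B at 0.62, with SNORD104 alone at an unadjusted p under 0.05 (7.07%). SNORA72 rested there on 1 and 3 counts, against 9 and 2 in control samples. Without overlap, 2 members were higher and 4 lower (13.5% and 14.2%). Without the library that stood apart, 7 of 27 members were above 0 there. Over the 4 groups labelled RPRD1A against the other 4, 0 members were called (0.0676%), 17 were above 0 (48.9%) and the median was 0.05. SNORA11F, at 0.32, and SNORD104, at -0.44, had an unadjusted p under 0.05 (4.56% of all genes), and the range ran from SNORA72 at -0.50 to SNORA11B at 0.44. DESeq2 called 0 members in each of these comparisons.

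**Figure D2:**
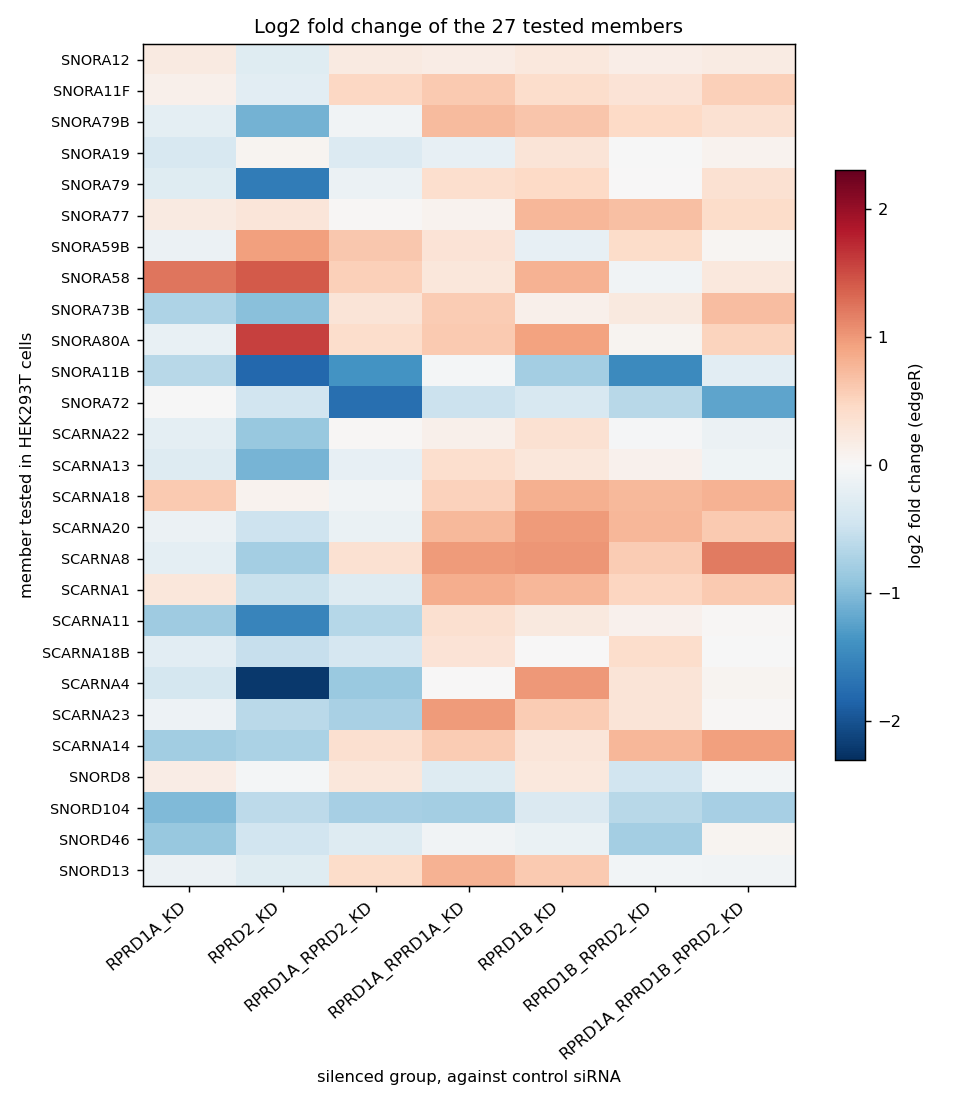
Log2 fold change of the 27 members tested in HEK293T cells (rows, grouped as SNORA, SCARNA and SNORD) in the 7 silenced groups against control siRNA (columns); red is higher and blue lower than control. The SCARNA rows are above 0 throughout in RPRD1B_KD and RPRD1A_RPRD1A_KD, where 50.7% and 50.4% of all genes were. In RPRD2_KD they are below 0 in 10 of 11, where 49.9% of all genes were above 0. No cell passed the adjusted test. Values of these groups entered the choice of SNORA79B and SCARNA8, so the signs are a description.

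Summed over the 61 members, the level was 405 ± 93 CPM (SD, n = 2) in control samples, 522 ± 74 in RPRD1B_KD, 505 ± 58 in RPRD1A_RPRD1A_KD, 454 ± 77 in RPRD1A_RPRD1B_RPRD2_KD and 446 ± 74 in RPRD1B_RPRD2_KD. It was 402 ± 98 CPM in RPRD1A_RPRD2_KD, 371 ± 18 in RPRD1A_KD and 287 ± 54 in RPRD2_KD. Sorted by level, neighbouring groups differ by less than the SD of the control group, and RPRD1B_KD and RPRD2_KD stand furthest apart. Most of the span came from the SCARNA names, at 234 ± 47 CPM in RPRD1B_KD, 172 ± 41 in control samples and 97.5 ± 28 in RPRD2_KD. SNORA names stood at 242 ± 26, 189 ± 44 and 150 ± 23 CPM, and SNORD names at 46.2 ± 0.49, 43.4 ± 8.5 and 39.2 ± 3.6 CPM.

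The summed level was higher in the second sample than in the first in 8 of 8 HEK293T groups, and 9 of the 27 tested members were higher in the second sample in 7 or 8 groups. In control samples the sum was 339 and 471 CPM. On the second principal component too, HEK293T samples split by sample number, except the second RPRD1A_RPRD2_KD library at -15.5. The share of reads outside annotated genes, given in the closing rows of the deposited tables, also split by sample number, at 34.33% to 36.66% in first and 27.36% to 29.77% in second samples. In Flp-In cells the 3 libraries with the largest share outside genes, 18.54% to 19.5%, had the 3 lowest sums (91.8, 96.2 and 116 CPM), where the other 5 had 152 to 192 CPM at 15.3% to 17.71%. The part of this share in the differences between groups was not tested.

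**Figure D3:**
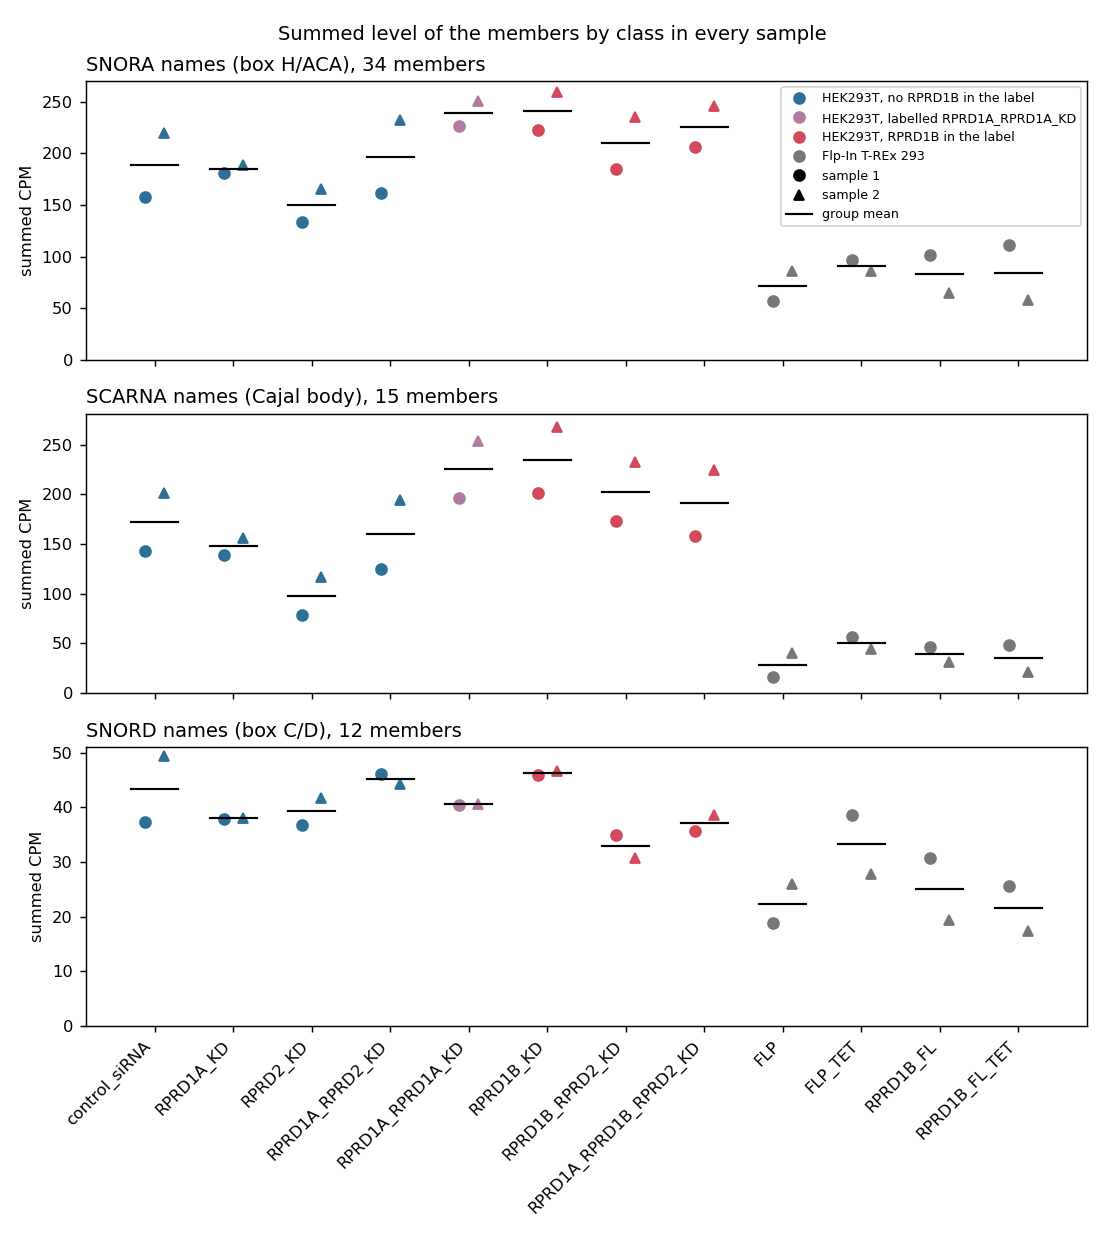
Summed level of the SNORA, SCARNA and SNORD members in every sample, in CPM on the y axis (each panel with its own scale from 0), with the 12 groups on the x axis; circles are samples numbered 1, triangles samples numbered 2 and bars group means. RPRD2_KD has the lowest SCARNA mean of the HEK293T groups, 97.5 CPM, and the Flp-In samples lie below every HEK293T sample in the SNORA and SCARNA panels.

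The hosts of the members were compared with them where both could be tested, in 22 pairs in HEK293T cells. In the 7 comparisons with control siRNA, 0 hosts were called by edgeR (0.00845% to 0.0169% of all genes). At an unadjusted p under 0.05 there was 0 or 1 host per comparison (2.51% to 7.07% of all genes). The median host log2 fold change lay between -0.12 and -0.02. In RPRD2_KD the members of these pairs had a median of -0.49 and the hosts of -0.08, and in RPRD1B_KD the medians were 0.33 and -0.02. Reads are counted at the 3′ ends of transcripts, so the host value stands for polyadenylated host RNA and not for its introns. CCNB1IP1 was at 33.6 and 44.5 CPM in RPRD1B_KD against 36.3 and 39.4 in control samples, and HAUS6 at 72.8 and 57.5 against 92.5 and 69.4.

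The proteins that bind and mature these RNAs were listed in 3 groups. All 8 core proteins of the particles (such as FBL, the box C/D methyltransferase, and DKC1, the H/ACA pseudouridine synthase), 14 assembly and Cajal body factors (such as NOLC1 and PHAX) and 10 debranching and 3′ end factors (such as EXOSC10, the nuclear exosome nuclease, and PAPD5, which adds short A tails) could be tested. In HEK293T cells 0 of the 32 were called in any of the 10 comparisons, where at most 0.0676% of all genes were. At an unadjusted p under 0.05 there was 1 in RPRD1B_KD (3.46% of all genes) and 2 in RPRD2_KD (3.84%), all lower. RPRD1A_RPRD2_KD, which holds the library that stood apart, had 2 core proteins, 3 assembly factors and 1 debranching or 3′ end factor lower (7.07%). Other comparisons had 0 or 1 per list in each direction. The medians of the 3 lists in RPRD1B_KD were -0.02, -0.01 and -0.07, and in RPRD2_KD -0.07, -0.12 and 0.01, on the log2 scale. Of 1817 other small structural RNA names, 46 had 24 or more counts and 9 could be tested in HEK293T cells, of which 0 were called. In Flp-In cells 2 of 7 were called in RPRD1B_FL_TET against FLP_TET, the U2 and U1 copies RNU2-63P, which rose by 1.49 (edgeR adjusted p = 0.00231), and RNU1-85P, which rose by 1.95 (edgeR adjusted p = 0.0153).

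In Flp-In cells SNORA79B was at 3.63 and 4.41 CPM in FLP, 4.11 and 4.43 in FLP_TET, 4.19 and 1.83 in RPRD1B_FL, and 3.21 and 0.426 in RPRD1B_FL_TET. RPRD1B_FL_TET lay below FLP_TET without overlap, with a log2 fold change of -1.13 (SE 0.605, edgeR adjusted p = 0.55), the lowest of the 13 tested members. The second RPRD1B_FL_TET value is a single count, and the log2 fold change was -0.40 without that library and -3.20 without the first. SCARNA8 was at or near the floor in this line, with values from 0 to 1.47 CPM and 8 counts in all, and was not tested. In RPRD1B_FL_TET against FLP_TET, 0 of 13 members were called, against 1.1% of the 11948 genes tested, 0 had an unadjusted p under 0.05 (10.4%) and DESeq2 called 0. The log2 fold change was below 0 in 11 members and above 0 in 2 (50.6% of all genes were above 0), with a median of -0.55. Without overlap, 6 members were lower and 0 higher (19.9% and 18.3%). SNORA79 was highest at 0.42. The number called changed when a library was left out, as given in the closing section.

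Tetracycline in the parent line went with higher values for most members. SCARNA22 was at 33.8 and 30.7 CPM in FLP_TET against 9.07 and 23.4 in FLP, and SNORA12, an H/ACA RNA encoded in CWF19L1, at 30.5 and 21.2 against 12 and 17.9. Neither pair of groups overlapped, and the first FLP library was the lowest of the 4 for both. The log2 fold changes were 0.94 (SE 0.373, edgeR adjusted p = 0.147) and 0.77 (SE 0.332, edgeR adjusted p = 0.176), and these 2 members alone had an unadjusted p under 0.05 (22.7% of all genes). For SCARNA22 the log2 fold change was 0.46 without the first FLP library and 1.82 without the second. SNORD104, at 3.52 and 2.21 CPM against 1.09 and 1.1, was highest at 1.36, and SNORA59B lowest at -0.08. In all 0 of 13 were called (1.02% of all genes), with 0 by DESeq2, 12 were above 0 (49.4%), the median was 0.61, and 7 were higher without overlap (29.1%). The number called was 2 when FLP and FLP_TET were fitted alone and 3 without the filter on low counts. Shares of all genes called in these fits are not given, so these counts do not show whether the members stand out. Fits that left out a library are covered in the closing section. The host SNHG25 rose by 0.70 (edgeR adjusted p = 0.047), and the assembly factor RPAP3 fell by 1.05 (edgeR adjusted p = 0.0441).

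RPRD1B_FL against FLP had 0 of 13 called (1.18% of all genes), 0 with an unadjusted p under 0.05 (13.3%), 11 above 0 (50.9%) and a median of 0.29. Its ends were SNORD8 at -0.65 and SNORA79 at 1.08, and without overlap 1 member was higher and 1 lower (22.7% and 21.6%). The host CCNB1IP1 fell by 1.08 there (SE 0.22, edgeR adjusted p = 0.01), from 37.0 and 33.4 to 16.1 and 17.2 CPM, while SNORA79B differed by -0.41 (SE 0.547, edgeR adjusted p = 0.788). Tetracycline in the RPRD1B_FL line gave 0 called (0.0% of all genes), 6 of 13 above 0 (50.1%) and a median of -0.23. SNORA59B, at 2.85 and 2.13 CPM against 7.34 and 3.3, was lowest at -1.08 (-0.39 without the first RPRD1B_FL library) and alone had an unadjusted p under 0.05 (6.11%), and SNORD8 was highest at 0.56. Without overlap, 0 members were higher and 2 lower (15.6% and 16.9%). DESeq2 called 0 members in both comparisons.

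The lines themselves differed most for the Cajal body RNAs. On a common scale over all 24 samples, 53 of 61 members had a higher mean in HEK293T cells, as did 8094 of the 15931 genes with 24 or more counts. Every HEK293T sample was above every Flp-In sample for 12 members and for 7.11% of these genes. In the other direction 0 members were free of overlap, against 10.0% of genes. The summed counts that kept the members came from 16 HEK293T and 8 Flp-In libraries. A member could thus be kept almost wholly through HEK293T counts, as SNORA73B was with 135 against 1. The counts of members here are therefore descriptions. The median ratio of HEK293T to Flp-In means was 8.11 for the 15 SCARNA, 2.23 for 30 SNORA and 1.49 for 11 SNORD with enough counts, and 1.0 for all genes. SNORA73B, SNORA74A, SNORA7, SNORA71B and SNORD38C, with 1 to 3 Flp-In counts and higher means in HEK293T cells, were left out. The SNORA and SNORD medians therefore lean low beside that of the SCARNA, of which none was left out. SCARNA13 was 16.2-fold higher (1602 against 57 counts). SCARNA8 had 453 counts in the 16 HEK293T libraries and 8 in the 8 Flp-In libraries, 5 of them in the first FLP_TET library. SCARNA11 had 362 and 4 counts, 2 of the 4 in the second RPRD1B_FL library, and SCARNA1 had 408 and 5. With so few counts in Flp-In cells, no ratio is given for these 3 members. They still count among the 15 SCARNA behind the median of 8.11, on its upper side. So do SCARNA4, SCARNA23 and SCARNA14, with 6, 8 and 5 Flp-In counts, so that median is uncertain. SNORA79B and SNORA79 were 7.87-fold and 7.89-fold higher. SCARNA18, at 7.83 and 7.48 CPM, was nearly equal, and SNORA19, an H/ACA RNA encoded in EIF3A, was the other way round with 11.3 CPM in HEK293T and 27 in Flp-In cells. SNORD13, which guides acetylation of ribosomal RNA, also had the lower mean in HEK293T cells, 3.96 against 6.77 CPM, with the limits of its near copy and of TTI2 named above. Line, siRNA transfection and the share of reads outside genes (27.36% to 36.66% against 15.3% to 19.5%) cannot be told apart in this comparison, which was not tested.

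**Figure D4:**
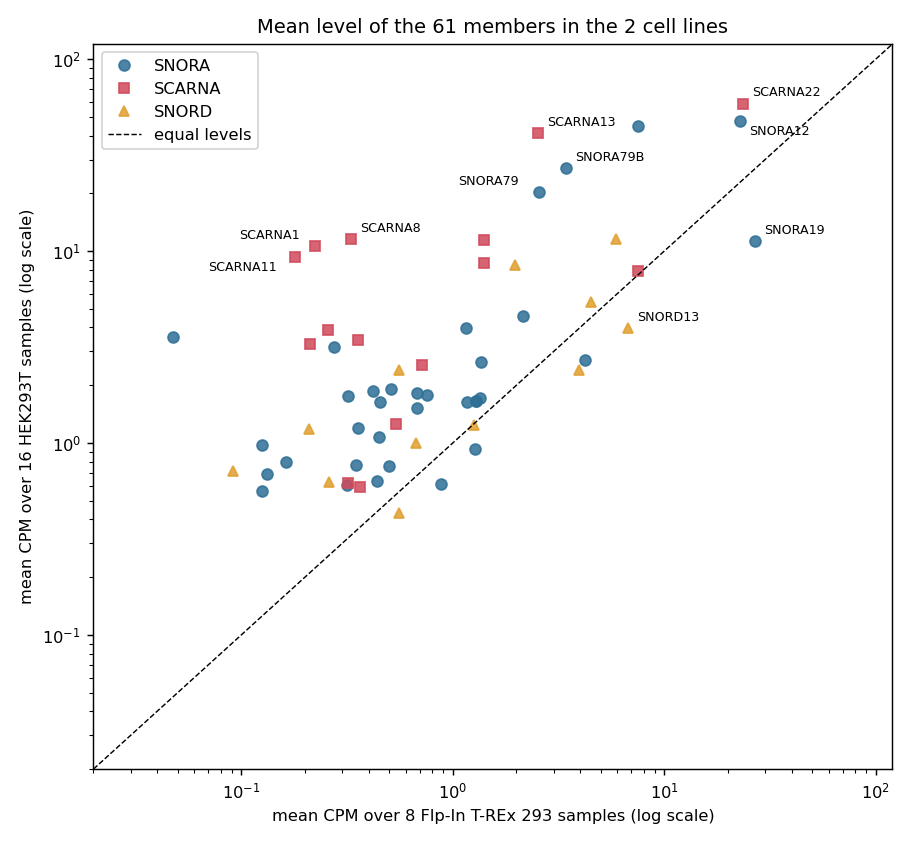
Mean level of each of the 61 members over 8 Flp-In T-REx 293 samples (x axis) and 16 HEK293T samples (y axis), in CPM on log scales, by class; the dashed line marks equal means. All 15 SCARNA squares lie above the line, and SNORA19 and SNORD13 are among the 8 members below it.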

How the data were processed

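RNA of 24 cell-line samples was read with the QuantSeq 3′ REV kit. The authors deposited 1 table per sample of raw counts, as whole numbers, for each gene name. The submitters' processing notes name FastQC, STAR, HTSeq, DESeq2 and GRCh38; versions, annotation and strand setting are not given in the sources used here. The 5 closing rows, which name no gene, were left out of library sizes and tests; reads outside genes were 15.3% to 36.66% of each table.

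The tests used edgeR 4.0.16 with limma 3.58.1 under R 4.3.3, per line, over all its samples with a coefficient per group: filterByExpr (minimum count 10, minimum total 15), TMM scaling and the quasi-likelihood test. p was adjusted by Benjamini-Hochberg over all genes tested, and a member was called under 0.05. CPM are counts scaled to the TMM library size, within a line except where lines are compared. SE was taken as the size of the log2 fold change divided by the root of F. DESeq2 1.42.0 was an alternative. The procedure was checked on simulated counts. These were drawn with a single spread for all genes, without a shift by sample number and without a library that stood apart.

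Members and lists were chosen with earlier results of these data known. Named members are SNORA79B, SCARNA8, the 12 with the highest mean CPM, the highest and lowest log2 fold change per comparison, and those at the ends of the count rule, with the hosts of the first 2, and from the protein lists abundant genes and those called. SNORD13, SNORD46, SCARNA11, SNORA77 and the hosts SNHG25, GTF2A1 and USP32 were named after their values were seen. Sequences and positions come from GENCODE release 29, where 57 of 61 members were found. Counting floors cover counting error only. No molecular identifiers or spike-ins were used here. Alternatives are given in the closing section.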

Additional observations from a re-analysis of the deposited data

Results flagged for a closer look

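SNORD46, a box C/D RNA, was at 1.81 and 4.69 CPM in FLP, 5.87 and 5.69 in FLP_TET, 5.24 and 5.13 in RPRD1B_FL, and 3.21 and 2.98 in RPRD1B_FL_TET. With tetracycline both samples of the parent line were above those without it (log2 fold change 0.76), and both samples of the RPRD1B_FL line were below (-0.73). Set the other way, RPRD1B_FL_TET lay below FLP_TET (-0.89) and RPRD1B_FL above FLP (0.60), again without overlap. Of all genes, 29.1%, 16.9%, 19.9% and 22.7% were free of overlap in these directions, in the order given. SNORD46 rests on 5 and 17 counts in FLP and 9 and 7 in RPRD1B_FL_TET. The first FLP library also had the lowest summed level of the members, 91.8 CPM. The differences above share the same samples and are not independent. It was singled out because its samples moved in opposite directions in the 2 lines, and the difference itself was not tested.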

How the results depend on the processing

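Apart from leaving out 1 library, 98 of 106 alternative counts of called members were 0, including those with RLE size factors, DESeq2, library totals and a mean count of 50. The mean count of 50 left members with fewer counts out of the test, SCARNA8 and SCARNA20 among them, so they could not be called in that setting. For the groups labelled RPRD1B, 6 members were called without the filter on low counts (SCARNA11, SCARNA20, SCARNA4, SCARNA8, SNORA79 and SNORA79B) and 3 with the replicate number as a block (SCARNA8, SNORA79 and SNORA79B). The block changed no other count. SNORA79B and SCARNA8 were singled out on their levels in samples given RPRD1B siRNA. Their calls here and in the settings below are descriptions and support nothing. Deviations of same-numbered HEK293T samples correlated at -0.0115 to 0.524 (over 0.1 in 26 of 28 pairs of groups), and of Flp-In samples at -0.357 to 0.461 (1 of 6), and the labels do not say that the numbers pair samples. Leaving out the second RPRD1A_RPRD2_KD library and adding the block together, an alternative added after seeing the data, 9 members were called for the groups labelled RPRD1B, 4 in RPRD2_KD (SCARNA13, SCARNA22, SNORA79 and SNORA79B), 3 over the groups labelled RPRD2 (SCARNA13, SCARNA22 and SNORA79) and 1 in RPRD1A_RPRD1B_RPRD2_KD (SCARNA8). FLP_TET against FLP had 3 called without the filter (SCARNA22, SNORA12 and SNORA77) and 2 with only those groups fitted. Leaving out 1 library gave 0 to 2 called for the groups labelled RPRD1B, 0 to 2 for RPRD1B_FL_TET against FLP_TET, 0 to 1 for RPRD1B_FL against FLP (SCARNA18, without the second FLP library), 0 to 3 for FLP_TET against FLP, and 0 to 0 for the other 10 comparisons. Summed levels moved by more than 1 SD only without SCARNA22, to 442 CPM in RPRD1B_KD, 317 in RPRD1A_KD, 438 in RPRD1A_RPRD1A_KD and 143 in FLP_TET. The cause of these changes was not tested. Shares of all genes called are not given for the alternative counts, which therefore do not show whether the members stand out. Most members hold few counts: 33 of 61 could be tested in neither line, and differences of those members were not tested.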
